A study of Mus musculus with 24 samples.

Results

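The heat shock proteins and chaperonins are the protein-folding machines of the cell, and their RNA levels were followed in mouse epidermis with and without the mitotic checkpoint gene Mad2. Members were taken by name from the array's target names: the Hspa, Hspb, Hspd, Hspe, Hsph and Hsp90 proteins, the J-domain proteins Dnaja, Dnajb and Dnajc, and the subunits Cct2 to Cct8, Cct6a and Tcp1 of the cytosolic chaperonin, with Hspa5 left out. The name rule also takes in Hspbap1, a protein that binds Hspb1. This gave 73 genes, read by 130 of the 45281 probes, among 30854 genes on the array. Of the 73, 56 passed the detection filter, which kept genes with a probe detected (detection p under 0.01) on at least 2 of 24 arrays, and were tested among 14950 genes. The 17 that did not pass were Dnaja1, Dnajb4, Dnajb7, Dnajb8, Dnajb14, Dnajc5b, Dnajc5g, Dnajc9, Dnajc11, Hspa1l, Hspa4l, Hspa12a, Hspa13, Hspa14, Hspb3, Hspb7 and Hspb9. Members were taken by name and not by their values in the comparisons, though earlier results of these data were known.

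RNA was prepared from epidermis peeled off the dermis after trypsin, and each sample was hybridized to 1 array of an Illumina BeadChip, a glass slide with several arrays of bead-bound probes. All mice were of a mixed B6-129Sv background. Mutants carried floxed Mad2 alleles and a Cre recombinase under the promoter of keratin 14, which drives expression in basal keratinocytes (Mad2f/f; K14Cre+), so that the gene could be lost in keratinocytes and not in other skin cells. At postnatal day 3 (P3) 2 mutants, noted as without phenotype, were set against 4 Cre-negative controls, whose Mad2 alleles are not stated. The same comparison held 2 mutants and 2 controls at P6, 2 and 2 at P13, and 2 and 3 at P20, and mutants from P6 on were noted as nude. Adults, of unstated age, were 1 Mad2f/f; K14Cre+ mutant, 2 mutants with a floxed p53 allele as well (Mad2f/f; p53f/+; K14Cre+), and 1 control that carried Cre with 1 floxed Mad2 allele (Mad2f/+; K14-Cre+). A further P3 array was labelled both with the mutant genotype and as a control, and it entered no comparison. Arrays were told apart by sample number within an age, and nothing in the labels says that they came from separate litters, so p-values measure the spread between these samples, part of which may be technical. The 1 adult control and the 1 adult mutant without the p53 allele were assumed to vary like the other groups.

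Hsp70 proteins (Hspa) bind unfolded stretches of other proteins and release them in a cycle of ATP hydrolysis. J-domain proteins (Dnaj) bring clients to Hsp70 and start that hydrolysis, Hsp110 proteins exchange the nucleotide, small heat shock proteins (Hspb) hold clients without ATP, and Hsp90 acts late, on kinases, receptors and other clients. The chaperonins are closed chambers: the Cct ring folds actin and tubulin in the cytosol, and Hspd1 with its lid Hspe1 folds proteins imported into mitochondria. A part of these genes is induced by heat and other protein stress through the transcription factor Hsf1, and the rest are expressed constantly or in particular tissues.

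Values are log2 normalized intensities, called log2 levels here, and a difference of 1 is a 2-fold change. Detection reached 23.26% to 40.07% of probes per array. Mad2l1, which encodes Mad2, checked the labels: it differed by -3.84 to -2.22 in log2 level at the 5 ages, passed the test at each (adjusted p of 3.55e-05 to 0.0048), and its mutant and control arrays did not overlap at any. The P3 call of Mad2l1 was lost without mutant 1 (-1.76, adjusted p = 0.154). Of 9 keratinocyte markers tested (Krt5, Krt14 and others), 8 or 9 were detected on each array. Markers of dermal fibroblasts were not even: of 16 tested, 4 and 4 were detected in P6 mutants and 16 and 16 in P6 controls, with mean log2 levels of 5.54 and 5.44 against 10.63 and 11.04. They were also high in all 4 P13 arrays (14 to 16 detected), in P20 control 3 (14), in the adult mutant without the p53 allele (15) and in the adult control (16), and low on the 2 p53f/+ arrays (2 each). The arrays lay on 8 chips. P13 lay on 1 chip, P20 was split between chip F (mutant 1 and control 3) and chip G (mutant 2 and controls 4 and 5), and at P3, P6 and in adults 1 array each lay on a chip apart from the rest.

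At P3, 0 of 56 rose and 2 fell, Dnajc6 and Dnajb13, where 0.268% of all genes tested rose and 1.62% fell (limma, adjusted p under 0.05). At P6, 2 rose and 8 fell, beside 9.44% and 12.9% of all genes. That balance moved with the settings: 10 rose and 12 fell with array weights, 9 and 9 without chips G and H, and 7 and 11 with only the compared groups in the fit. At P13, 2 rose and 6 fell, beside 9.7% and 10.4%. At P20, 1 rose and 4 fell, beside 4.37% and 5.57%, and in adults 1 rose and 3 fell, beside 5.16% and 6.47%. The share of members that changed was 3.57%, 17.9%, 14.3%, 8.93% and 7.14% in that order, and the share of all genes 1.89%, 22.4%, 20.1%, 9.94% and 11.6%, so the members stood near the background at each age. The median difference over the 56 tested members lay between -0.13 and 0.04 at the 5 ages, and over all genes between -0.03 and 0.03. In the mean of the P6, P13 and P20 differences, 4 members rose (Dnajb13, Dnajb6, Dnajb3 and Hspa1a) and 10 fell, beside 13.6% and 18.6% of all genes, and the falls were led by Dnajc6 (2.54 ± 0.41 SE), Hspa2 (2.48 ± 0.21), Hspa12b (1.22 ± 0.16), Dnajc10 (0.91 ± 0.25), Cct4 (0.80 ± 0.16) and Dnajc12 (0.74 ± 0.19). Dnajb13 was detected on 2 of 24 arrays, Hspa12b on 8 and Dnajc12 on 9. Another probe of Hspa1a reversed in this mean, and the other probes of Dnajb6 reversed at P13.

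**Figure D1:**
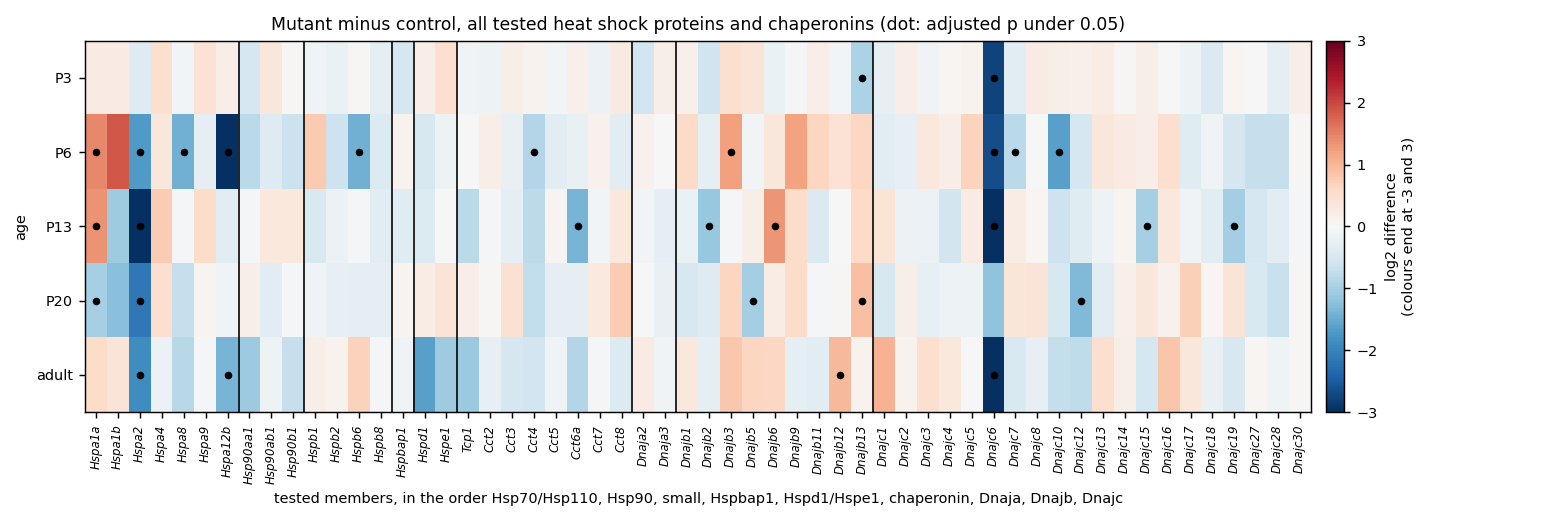
Colour gives the mutant minus control difference in log2 level for each of the 56 tested members (columns, by family) at each age (rows), with colours ending at -3 and 3, and a dot marks adjusted p under 0.05 over all 14950 genes. Hspa2 and Dnajc6 are the columns with falls at most ages, and most other members have at most 1 dot.

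Of 12 genes listed as induced through Hsf1, 11 were tested, and of these 0 changed at P3, 1 rose and 1 fell at P6, 1 rose at P13, 1 fell at P20, and 0 changed in adults, with median differences of -0.08, -0.42, -0.06, -0.36 and -0.06. The calls were 0%, 18.2%, 9.09%, 9.09% and 0% of the 11 at P3, P6, P13, P20 and in adults. The shares of all genes were 1.89%, 22.4%, 20.1%, 9.94% and 11.6%. In that order, 0, 4, 1, 4 and 3 of the 11 had an unadjusted p under 0.05. The gene of this list that rose at P6 and P13 and fell at P20 was Hspa1a. The gene that fell at P6 was Hspa8, called constant below, whose other probes did not pass there. The mean log2 level of the 11 was 9.56 and 9.43 in P3 mutants and 9.42 to 9.70 in P3 controls. At P6 it was 10.17 and 10.06 in mutants and 10.09 and 10.13 in controls, and at P13 9.87 and 9.66 against 9.76 and 9.74. At P20 it was 10.11 and 9.23 in mutants against 10.49, 9.91 and 9.79 in controls. Mutant 1 and control 3 of P20 lay on chip F and the other 3 arrays on chip G, and each mutant was below the controls of its chip. In adults the mean was 9.63, 10.12 and 10.03 in mutants and 10.19 in the control. The list was chosen with earlier results of these arrays known. It holds Hsph1 and Hspa4l through rows that carry older names, which the name rule does not take in.

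Hspa2 fell at each of the 4 ages after P3. It encodes an Hsp70 protein best known from mouse spermatocytes, where it is needed for meiosis, and lies on chromosome 12 from 76403812 to 76406938 (GRCm38.p6). Its log2 level was 10.90 and 10.03 in P3 mutants and 11.54, 11.10, 10.22 and 10.52 in P3 controls, and these arrays overlapped. At P6 it was 10.35 and 10.29 in mutants against 11.75 and 12.27 in controls, and at P13 8.80 and 8.62 against 12.23 and 12.42. From P6 on all mutant arrays lay below all control arrays of their age. At P20 it was 9.78 and 9.76 in mutants against 11.97, 11.95 and 11.81 in controls, so that mutants of both chips were low by about the same amount (differences of -2.20 within chip F and -2.12 within chip G). In adults it was 9.53 in the mutant without the p53 allele, 9.27 and 9.78 in the 2 p53f/+ mutants and 11.39 in the control. Hspa2 fell by 1.70 ± 0.37 (SE) at P6 (adjusted p = 0.00356) and fell by 3.61 ± 0.37 at P13 (4.78e-06). It fell by 2.14 ± 0.34 at P20 (8.33e-04) and fell by 1.87 ± 0.43 in adults (0.0084), and the difference at P3 was -0.38 ± 0.32 (1). At P20 the calls of Hspa2 and of the other members were lost with array weights or with only the P20 arrays in the fit. Adult calls of members, that of Hspa2 among them, were lost with only the adult arrays in the fit. The fall at P13, 12.2-fold, was larger than that at P6 (difference of the effects -1.92 ± 0.53, adjusted p = 0.03). A second probe of Hspa2, also detected on all 24 arrays, differed by -2.60 at P13, -2.08 at P20 and -1.70 in adults and passed the test at these 3 ages, and its P6 difference of -1.07 did not pass the test (adjusted p = 0.0728 over all detected probes). Without P6 control 4, which lay alone on its chip, the P6 difference of the first probe was -1.44 (adjusted p = 0.0566). Keratins of the hair shaft were lower on the same arrays: of 11 tested, 8 fell at P6, 11 at P13, 3 at P20 and 10 in adults, but 9 also fell at P3, where Hspa2 overlapped. At P20 their mean log2 levels were 5.43 and 5.10 in mutants 1 and 2. In controls 3, 4 and 5 they were 7.47, 5.93 and 5.94, where Hspa2 was 11.97, 11.95 and 11.81. The part of hair shaft keratins in the Hspa2 values was not tested. Here and below, fewer cells of a type and less RNA per cell cannot be told apart in whole epidermis.

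**Figure D2:**
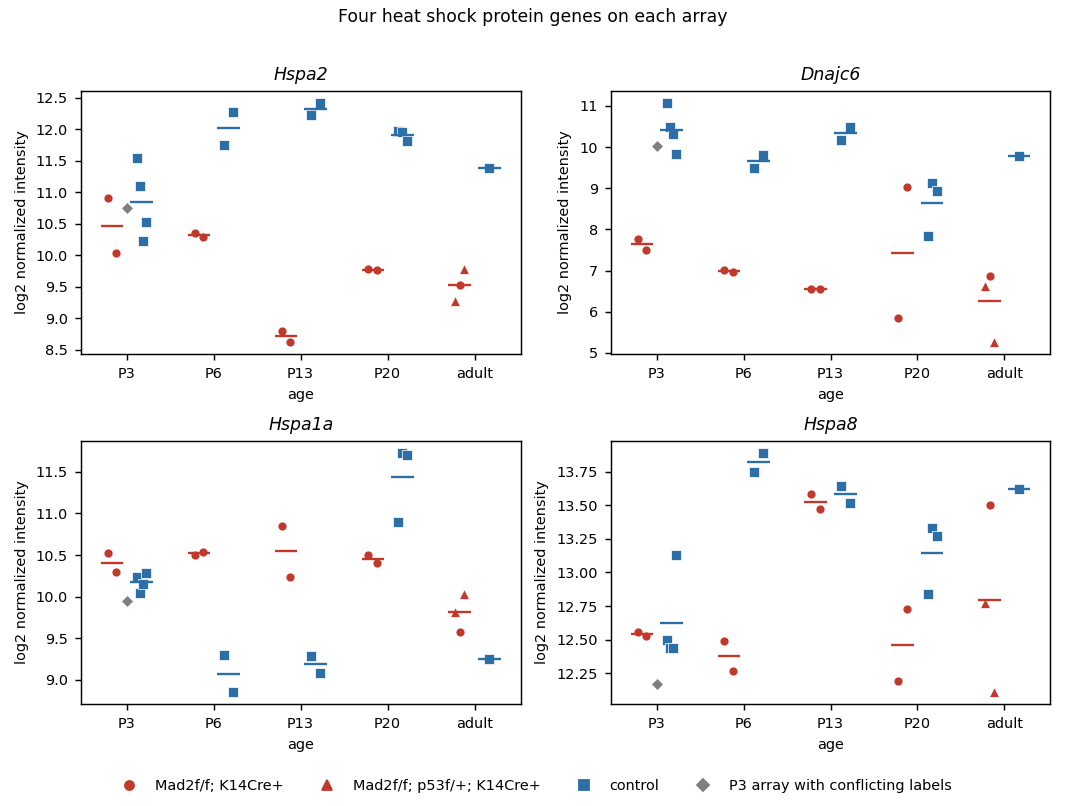
Each panel gives the log2 normalized intensity of 1 gene on every array (points) by age, with mutants in red, controls in blue, a bar at each mean and the P3 array with conflicting labels in grey. Hspa2 and Dnajc6 lie lower in mutants at P13 and in adults, and Hspa1a lies higher in mutants at P6 and P13 and lower at P20.

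Hspa1a, the main heat-inducible Hsp70, changed its direction with age. It lies on chromosome 17 from 34969359 to 34972156 (GRCm38.p6), next to its near-identical copy Hspa1b. The log2 level was 10.53 and 10.29 in P3 mutants and 10.24, 10.04, 10.15 and 10.28 in P3 controls, a difference of 0.24 that did not pass. At P6 it was 10.50 and 10.54 in mutants against 9.30 and 8.85 in controls, and at P13 10.85 and 10.24 against 9.29 and 9.08. Mutants were thus above controls at P6 and P13 with no overlap. At P20 the order was turned, with 10.50 and 10.41 in mutants against 10.90, 11.73 and 11.70 in controls, and in adults the levels were 9.58, 9.82 and 10.03 in the 3 mutants and 9.25 in the control. Over P3 to P20 the mutant means stayed between 10.41 and 10.54, while the control means were 10.18, 9.07, 9.19 and 11.45. Ages lay on different chips, so age and chip cannot be told apart in these means. Fibroblast markers were high in P6 controls and low in P6 mutants, and their part in this and other P6 rises was not tested. Hspa1a rose by 1.45 ± 0.29 at P6 (2.73-fold, adjusted p = 0.00168) and by 1.35 ± 0.29 at P13 (0.0034) and fell by 0.99 ± 0.26 at P20 (0.0244). The P20 effect minus the P13 effect was -2.34 ± 0.39 (adjusted p = 0.00166). The P20 difference was -0.40 within chip F and -1.31 within chip G, and its adjusted p was 0.0601 to 0.0975 without mutant 1, mutant 2, control 4 or control 5. At P13 the rise without mutant 1 was 1.05 (adjusted p = 0.0643). A second probe of Hspa1a gave differences of 1.32 at P6, 0.70 at P13 and -0.72 at P20, and the last 1.51, -0.09 and -1.64, so all 3 were higher at P6 and lower at P20 and they disagreed at P13.

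Hspa1b differences were 0.24 ± 0.58 at P3, 1.86 ± 0.67 at P6 (adjusted p = 0.0564), -1.06 ± 0.67 at P13, -1.25 ± 0.61 at P20 and 0.39 ± 0.77 in adults, and 0 of these passed the test. Its log2 level was 6.96 and 7.47 in P6 mutants against 5.24 and 5.47 in P6 controls, and 7.84 and 4.73 in P20 mutants against 7.48, 7.82 and 7.31. The P20 mutants thus lay on either side of their controls, above on chip F and below on chip G. Hspa1a and Hspa1b could share signal, since the genes are near-identical copies; their promoters, printed next, are the same at 296 of 300 bases.

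The promoters show where Hsf1's binding motif, the heat shock element, stands in members that the stress response is known for, and in Hspa2, whose fall was the largest of the Hsp70 genes in the mean of P6, P13 and P20. The element is a row of 3-base units GAA and TTC in turn with 2 bases between them. A form with 3 units (GAANNTTCNNGAA or TTCNNGAANNTTC, each the other strand of the other) and a form with 2 units (GAANNTTC or TTCNNGAA, contained in the first) were searched on both strands of RefSeq promoters (GRCm38.p6, 250 bases before to 50 after the start), which were found for 59 of the 73 members. The form with 3 units stood in 3 of the 59 (5.08%), Dnajb6, Hspd1 and Hspe1, and in 0.662% of 27025 genes; Hspd1 and Hspe1 share 1 promoter region, read in opposite directions, so these are 2 places in the genome. The form with 2 units stood in 17 of the 59 (28.8%) and in 17% of all genes. In Hspa1a and Hspa1b it began 104 bases before the start, and the window searched for Hspa2 held neither form. That window, from 76404120 to 76404419, lies inside the gene as listed above, which begins at 76403812. Bases before the first base of the listed gene were not searched. A match is a description of the letters, and no match says only that these letters are not in the window. Capitals mark bases of either form.
Hspa1a, chr17:34972107-34972406, minus strand: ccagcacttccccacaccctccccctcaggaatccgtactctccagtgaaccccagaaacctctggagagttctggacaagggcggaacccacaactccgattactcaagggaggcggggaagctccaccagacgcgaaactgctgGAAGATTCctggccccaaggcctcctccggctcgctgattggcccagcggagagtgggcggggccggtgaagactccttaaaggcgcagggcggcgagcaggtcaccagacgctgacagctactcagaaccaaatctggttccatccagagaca
Hspa1b, chr17:34959189-34959488, minus strand: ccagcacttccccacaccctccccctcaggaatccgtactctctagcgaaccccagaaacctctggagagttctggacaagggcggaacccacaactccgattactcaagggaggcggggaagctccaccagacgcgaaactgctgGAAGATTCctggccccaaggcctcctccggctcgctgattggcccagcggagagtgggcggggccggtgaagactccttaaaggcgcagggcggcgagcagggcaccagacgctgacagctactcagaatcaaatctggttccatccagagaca
Hspe1, chr1:55087898-55088197, plus strand: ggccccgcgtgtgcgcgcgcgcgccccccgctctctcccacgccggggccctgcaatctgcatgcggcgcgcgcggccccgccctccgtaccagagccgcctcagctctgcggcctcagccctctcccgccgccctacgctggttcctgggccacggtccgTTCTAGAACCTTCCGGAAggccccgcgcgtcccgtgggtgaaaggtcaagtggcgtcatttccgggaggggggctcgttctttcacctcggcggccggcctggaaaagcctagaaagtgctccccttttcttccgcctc
Hspa2, chr12:76404120-76404419, plus strand: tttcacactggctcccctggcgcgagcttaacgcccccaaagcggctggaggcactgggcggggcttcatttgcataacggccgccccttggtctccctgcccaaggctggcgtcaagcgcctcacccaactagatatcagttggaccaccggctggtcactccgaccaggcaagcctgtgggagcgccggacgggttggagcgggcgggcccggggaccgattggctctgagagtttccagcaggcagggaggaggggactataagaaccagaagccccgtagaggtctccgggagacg
Of the members with the 3-unit form, Dnajb6 rose at P13 and Hspd1 and Hspe1 passed the test at none of the 5 ages, each by its reported probe; other probes of Dnajb6 and Hspd1 gave other values, described with these genes. Of the 13 tested members with the 2-unit form, Hspa1a rose at P6 and P13 and fell at P20, Dnajb6 rose at P13, Cct6a fell at P13, Hspb6 and Dnajc10 fell at P6, and the other 8 passed the test at none of the 5 ages. Among all genes tested, 1.89%, 22.4%, 20.1%, 9.94% and 11.6% changed at P3, P6, P13, P20 and in adults. Whether members with either form changed more often than other genes was not tested.

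Hspa8, the constant Hsp70 that also strips clathrin from vesicles, fell at P6 by 1.44 ± 0.29 (adjusted p = 0.00205). Its log2 level was 12.49 and 12.27 in P6 mutants against 13.75 and 13.89 in P6 controls, which did not overlap, and 13.58 and 13.47 against 13.64 and 13.52 at P13, which did. At P20 it was 12.19 and 12.73 in mutants and 12.84, 13.33 and 13.27 in controls, and within chips F and G mutants were lower by similar amounts (differences of -0.65 and -0.57). The P20 and adult differences of -0.69 ± 0.27 and -0.82 ± 0.34 did not pass the test. The P6 effect minus the P3 effect was -1.36 ± 0.39 (adjusted p = 0.0352), and the P13 effect minus the P6 effect was 1.38 ± 0.42 (0.0471). The 3 probes of Hspa8, all detected on 24 arrays, disagreed. The second gave 0.78 at P6 and -3.13 ± 0.48 at P13 (adjusted p = 2.79e-04 over all detected probes), and the last -1.05 and 0.27. At P6 the reported probe passed the test and the other 2, of opposite sign to each other, did not. Fibroblast markers, high in P6 controls and low in P6 mutants, moved with the P6 fall, and their part in it was not tested.

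**Figure D3:**
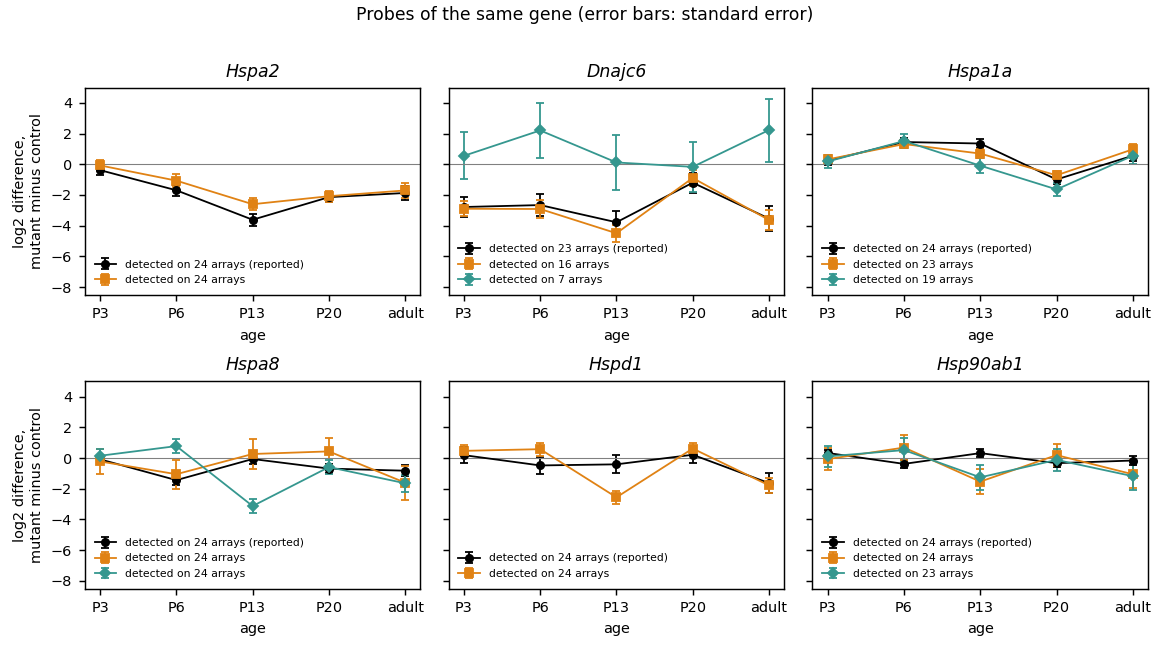
Mutant minus control differences in log2 level (points, with standard errors) by age for every detected probe of 6 members, the reported probe in black. The 2 probes of Hspa2 run together, 2 of the 3 Dnajc6 probes run together, and the probes of Hspa8, Hspd1 and Hsp90ab1 lie apart at P13.

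Disagreement between probes was common. Of 22 members with several detected probes, all probes had the same sign in 9 at P3, 9 at P6, 14 at P13, 15 at P20 and 16 in adults. The positions of the probes on the transcripts were not used here.

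Of the other Hsp70 and Hsp110 genes, the mitochondrial Hspa9 and the Hsp110 gene Hspa4 passed the test at none of the 5 ages. Hspa9 differences ran from -0.28 ± 0.28 at P6 to 0.56 ± 0.28 at P13, and Hspa4 differences from -0.17 ± 0.88 in adults to 0.75 ± 0.77 at P13. Hsph1, an inducible Hsp110 that the array lists under an older name and that is therefore no member, gave differences of -0.20, -0.63, 0.12, -0.95 and -0.99 at P3, P6, P13, P20 and in adults, with adjusted p from 0.0902 to 1.

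Hspa12b, a distant Hsp70 relative known from endothelium (chromosome 2, 131127412 to 131145985), was detected on 8 of 24 arrays. Its log2 level was 8.06 and 7.81 in P6 controls against 4.59 and 4.80 in P6 mutants, where it was not detected. It was 6.56 and 6.77 in P13 mutants and 7.19 and 6.80 in P13 controls, and in adults 8.26 in the mutant without the p53 allele, 7.14 in the control, and 4.60 and 4.41 in the p53f/+ mutants. These 8 arrays are the ones where endothelium and blood markers were detected: 9 or 10 of 11 on each, with mean log2 levels of 8.03 to 9.11, against 1 to 5 of 11 and 5.18 to 7.51 on the other 16. Hspa12b fell by 3.24 ± 0.28 at P6 (adjusted p = 6.98e-07), at least 4.94-fold lower in mutants with the undetected arrays set at the detection floor. The P6 effect minus the P3 effect was -3.42 ± 0.37 (adjusted p = 2.1e-05), and the P13 effect minus the P6 effect was 2.91 ± 0.39 (1.64e-04). In adults it fell by 1.38 ± 0.32 (adjusted p = 0.00815), but the mutant arrays lay on both sides of the control, and without either p53f/+ mutant the difference was -0.81 or -0.71 (adjusted p = 0.189 and 0.244). The part of endothelium in these values was not tested.

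Hspb6 (Hsp20, abundant in muscle; chromosome 7, 30552535 to 30555443) had a log2 level of 13.16 in the adult mutant without the p53 allele, against 9.01 and 8.43 in the p53f/+ mutants, 9.51 in the adult control and 7.78 to 9.66 on the other 20 arrays. The same array had a mean log2 level of 12.01 over 14 muscle markers, all 14 detected, against 5.21 to 7.36 on the other 23. In the comparison of the p53 allele, 0 members rose and 4 fell in p53f/+ mutants, beside 7.12% and 8.13% of all genes. Hspb6 fell by 4.44 ± 0.53 (adjusted p = 2.7e-05) and Hspa12b by 3.75 ± 0.34 (1.68e-06, at least 5.40-fold lower). Dnajb5, at least 1.45-fold lower, fell by 1.40 ± 0.34 (0.0106), and the muscle-related Hspb2, at least 1.39-fold lower, fell by 1.14 ± 0.33 (0.0271). All 4 falls rest on 1 array without the p53 allele, which also held the highest muscle level and 15 of 16 fibroblast markers, so the allele and that array cannot be told apart. At P6, Hspb6 was 8.15 and 8.09 in mutants and 9.45 and 9.66 in controls and fell by 1.43 ± 0.43 (adjusted p = 0.0244), on arrays where muscle markers had means of 5.69 and 5.67 against 6.63 and 6.95. At P20 Hspb6 was 7.78 in mutant 1 and 8.04 in control 3 on chip F, where muscle means were 5.58 and 7.30. On chip G it was 9.23 in mutant 2 and 8.96 and 9.31 in controls 4 and 5, with means of 5.87, 5.21 and 5.42. The part of muscle in the Hspb6 values was not tested. The P6 call was lost without any 1 of the 4 arrays (differences of -1.54 to -1.33, adjusted p of 0.0782 to 0.137).

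**Figure D4:**
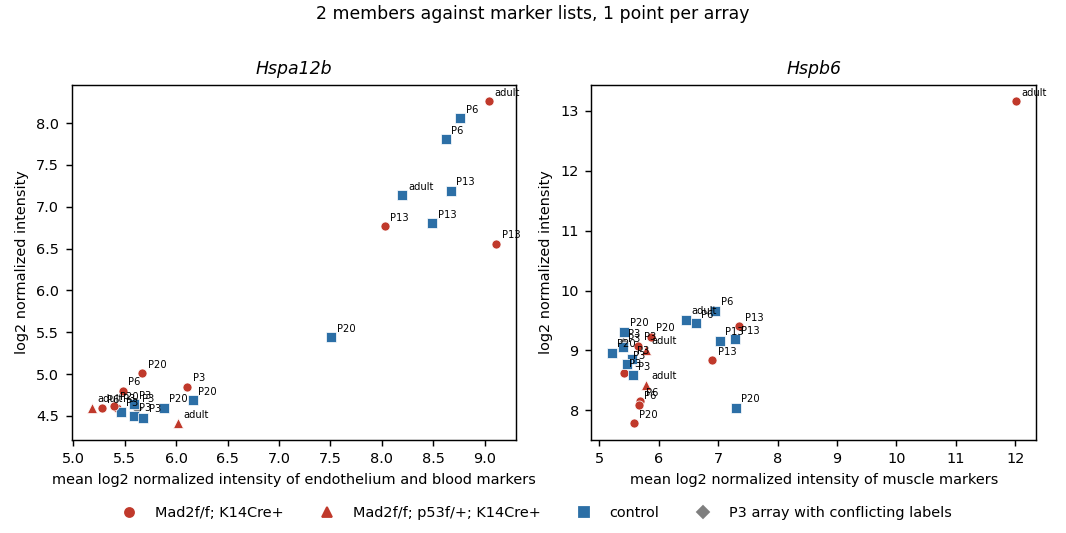
The log2 normalized intensity of Hspa12b against the mean of endothelium and blood markers (left) and of Hspb6 against the mean of muscle markers (right), 1 point per array with its age beside it. The arrays with Hspa12b above 6 all have endothelium and blood marker means above 8, and the adult mutant without the p53 allele stands alone in both values on the right.

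Among the small heat shock proteins that keratinocytes express, Hspb1 (Hsp27) and Hspb8 did not pass the test at any age. Hspb1 was 12.54 and 12.92 in P6 mutants and 11.84 and 12.04 in P6 controls, which did not overlap, for a difference of 0.79 ± 0.63 (95% interval -0.55 to 2.13). At P20 it was 13.04 in mutant 1 and 13.79 in control 3 on chip F, and 11.26 in mutant 2 and 11.49 and 11.46 in controls 4 and 5 on chip G, so the arrays of chip F lay above those of chip G in both genotypes. Hspb8 differences lay between -0.42 ± 0.37 at P6 and -0.06 ± 0.43 in adults.

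Dnajc6 was lower in mutants already at P3, and at P3, P6, P13 and in adults its difference was the largest among the tested J-domain proteins. It encodes auxilin, which brings Hsc70 to clathrin-coated vesicles and is best known from neurons, and lies on chromosome 4 from 101496648 to 101642799 (GRCm38.p6). Its log2 level was 7.77 and 7.51 in P3 mutants and 11.08, 10.48, 10.31 and 9.82 in P3 controls, with 10.03 on the P3 array of conflicting labels. It was 7.02 and 6.96 in P6 mutants against 9.50 and 9.80 in controls, and 6.56 and 6.54 in P13 mutants against 10.16 and 10.50. At these 3 ages mutants and controls did not overlap. P20 was uneven: on chip F the level was 5.84 in mutant 1 and 7.84 in control 3, and on chip G 9.03 in mutant 2 and 9.12 and 8.93 in controls 4 and 5, so that the difference was -1.999 on chip F and -0.003 on chip G. The chip G mutant thus lay among its controls. Adult mutants had 6.87, 6.62 and 5.26 and the adult control 9.79. Dnajc6 fell by 2.78 ± 0.63 at P3 (adjusted p = 0.0273) and fell by 2.66 ± 0.73 at P6 (0.0142). It fell by 3.78 ± 0.73 at P13 (0.00154, 13.7-fold) and fell by 3.54 ± 0.84 in adults (0.00988), and the P20 difference of -1.20 ± 0.66 did not pass (0.3). A second probe, detected on 16 arrays, gave differences of -2.90 at P3, -2.91 at P6, -4.50 at P13 and -3.63 in adults that passed the test, and its P20 difference was -0.89. The last, detected on 7 arrays, gave 0.55, 2.21, 0.12, -0.17 and 2.23, with standard errors of 1.54 to 2.05, and with the mean of the 3 probes the P3 difference was -1.71 (adjusted p = 0.18). The P3 call was lost without either mutant (-2.91 and -2.66, adjusted p of 0.147 and 0.295), without control 4 (-2.57, 0.0871) or without control 5 (-2.76, 0.0647), and the P6 call without any 1 of the 4 arrays (0.0559 to 0.0948). Hair shaft keratins were lower on the same mutant arrays at P3, with mean log2 levels of 8.74 and 8.99 against 11.93 to 12.70 in controls and 11.83 on the array of conflicting labels. At P20 hair shaft means were 5.43 in mutant 1 and 7.47 in control 3 on chip F. On chip G they were 5.10 in mutant 2 and 5.93 and 5.94 in controls 4 and 5, where Dnajc6 was 9.03, 9.12 and 8.93. The part of hair shaft keratins in the Dnajc6 values was not tested.

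Among the other cytosolic J-domain proteins, Dnajb3, known from mouse testis, rose at P6 by 1.24 ± 0.36 (6.60 and 6.90 against 5.51 and 5.51, adjusted p = 0.0211). Dnajc7, which links Hsp70 and Hsp90, fell at P6 by 0.81 ± 0.28 (10.51 and 10.67 against 11.49 and 11.31, adjusted p = 0.0437). Both calls were lost without any 1 of the 4 P6 arrays, with differences of 1.09 to 1.39 and adjusted p of 0.056 to 0.143 for Dnajb3, and of -0.90 to -0.72 and 0.112 to 0.208 for Dnajc7. At P13, Dnajb2, which sorts clients to the proteasome, fell by 1.13 ± 0.24 (10.02 and 10.22 against 11.31 and 11.18, adjusted p = 0.00344), with P3 and P6 differences of -0.60 and -0.29 that did not pass. Dnajb6, a suppressor of protein aggregation, rose at P13 by 1.33 ± 0.33 (10.41 and 10.08 against 9.07 and 8.76, adjusted p = 0.00935), while its other probes gave -0.45 and -1.02, and without mutant 1 or control 4 the rise was 1.17 or 1.18 (adjusted p = 0.0933 and 0.1). Dnajb1, the main heat-inducible partner of Hsp70, was 12.32 and 12.35 in P6 mutants against 11.71 and 11.83 in P6 controls, a difference of 0.57 ± 0.22 that did not pass (adjusted p = 0.0755), and 12.24 and 12.25 in P20 mutants against 12.37, 12.95 and 12.89 (-0.49 ± 0.20, 0.143).

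Of the genes near background, Dnajb13, a part of the axoneme of cilia and sperm tails, fell at P3 by 0.96 ± 0.21 (4.84 and 5.11 against 5.76, 6.17, 5.95 and 5.84, adjusted p = 0.0256) and rose at P20 by 0.90 ± 0.22 (5.49 and 5.80 against 4.73, 4.95 and 4.57, 0.018), but it was not detected on any array of either age and gives no fold there. The P6 effect minus the P3 effect was 1.59 ± 0.33 (adjusted p = 0.00468). The P3 call was lost without either mutant, control 5 or control 6 (-1.09 to -0.82, adjusted p of 0.0552 to 0.311), and the P20 call without mutant 2 (0.74, 0.0944) or control 5 (0.81, 0.0671). At P20 Dnajb5, a cytosolic J-domain protein, was 5.04 and 4.85 in mutants and 5.84, 6.01 and 6.04 in controls, and fell by 1.02 ± 0.25 (adjusted p = 0.0174). Dnajc12, a partner of the aromatic amino acid hydroxylases, fell by 1.32 ± 0.31 (0.0127), and both genes were detected in 0 of 2 mutants and 1 of 3 controls. Dnajc12 was 4.91 and 4.72 in mutants and 5.65, 6.77 and 6.01 in controls. Both calls were lost without mutant 2 or control 4 (Dnajb5 -0.92 and -0.99, Dnajc12 -1.23 and -1.01, adjusted p of 0.0511 to 0.0752), and that of Dnajb5 without control 5 (-0.98, 0.0538).

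Members of the endoplasmic reticulum held 7 tested genes, of which 1 fell at P6, 1 rose in adults and 0 changed at P3, P13 and P20, with median differences of 0.31 at P6 and -0.30 in adults. The calls were 14.3% of the 7 at P6 and in adults, beside 22.4% and 11.6% of all genes. At P3, P13 and P20, 1.89%, 20.1% and 9.94% of all genes changed. The 1 that fell was Dnajc10, a reductase of disulfide bonds, at 9.30 and 9.30 in P6 mutants against 10.82 and 11.05 in P6 controls (difference of -1.63 ± 0.44, adjusted p = 0.0133). Its difference lay between -1.75 and -1.52 without each of the 4 arrays (adjusted p of 0.0503 to 0.0952), again on arrays with unequal fibroblast markers. Dnajb9, an inducible partner of the reticulum's Hsp70, was 9.01 and 8.73 in P6 mutants against 7.70 and 7.64 in P6 controls, a difference of 1.20 that did not pass. Dnajb12, a membrane protein of the reticulum, rose in adults by 0.97 ± 0.29 (8.70, 8.43 and 8.23 in mutants against 7.48 in the control, adjusted p = 0.0399), and without p53f/+ mutant 1, alone on its chip, the rise was 0.85 (0.0988).

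Of 6 tested mitochondrial members, 0 rose and 2 fell at P13 (33.3%), where 20.1% of all genes changed, and 0 passed the test at the other 4 ages. There the share of all genes was 1.89% at P3, 22.4% at P6, 9.94% at P20 and 11.6% in adults. The 2 that fell are partners of the import motor in the inner membrane. The 6 differences ran from -1.03 to 0.56 at P13, with a median of -0.35, and from -1.63 to -0.04 in adults, with a median of -0.51. Dnajc15 was 8.91 and 9.19 in P13 mutants and 10.13 and 9.98 in controls and fell by 1.01 ± 0.22 (adjusted p = 0.00368). Dnajc19 was 10.23 and 10.63 against 11.45 and 11.47 and fell by 1.03 ± 0.24 (0.00674). At P6 and P20 Dnajc15 was not lower in mutants, with 10.16 and 10.07 against 9.72 and 10.13 at P6 and 9.58 and 9.48 against 8.99, 9.21 and 9.40 at P20. Its P13 effect minus its P6 effect was -1.20 ± 0.31 (adjusted p = 0.0208) and its P20 effect minus its P13 effect 1.34 ± 0.30 (0.0123), and the latter was 1.41 ± 0.33 for Dnajc19 (0.0175). Without P13 mutant 1 the differences were -0.87 and -0.83 (adjusted p = 0.0514 and 0.0925), and without control 4 that of Dnajc19 was -1.02 (0.0564). The other 2 probes of Dnajc19 gave -1.18 and -0.58 at P13 and -0.83 and -1.28 at P20, and these did not pass. The chaperonin Hspd1 gave -0.41 ± 0.58 at P13 and -1.63 ± 0.67 in adults (10.44, 9.04 and 10.56 against 11.64, adjusted p = 0.142), and its lid Hspe1 0.02 ± 0.56 and -1.07 ± 0.65. A second probe of Hspd1 fell at P13 by 2.56 ± 0.41 (adjusted p = 4.34e-04) and in adults by 1.78 ± 0.48 (0.0241), so its 2 probes differed in size at P13 and only the second passed there.

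The cytosolic chaperonin held 8 tested subunits. Their differences ran from -0.18 to 0.28 at P3, from -0.88 to 0.20 at P6, from -1.40 to 0.32 at P13, from -0.73 to 0.76 at P20 and from -1.12 to -0.07 in adults, with medians of 0.01, -0.22, -0.17, 0.11 and -0.46. Of the 8, 1 fell at P6, 1 fell at P13 and 0 changed at the other ages, with unadjusted p under 0.05 for 0, 1, 2, 2 and 1. The calls were 12.5% of the subunits at P6 and at P13, beside 22.4% and 20.1% of all genes. At P3, P20 and in adults 1.89%, 9.94% and 11.6% of all genes changed. Cct4 was 11.26 and 11.36 in P6 mutants against 11.96 and 12.43 in controls and fell by 0.88 ± 0.28 (adjusted p = 0.0349), a call lost without mutant 1, mutant 2 or control 4 (-0.93 to -0.64, adjusted p of 0.11 to 0.276). Its differences of -0.78 at P13 and -0.73 at P20 were of like size and did not pass, and with P6, P13 and P20 averaged it fell by 0.80 ± 0.16 (adjusted p = 0.00114). Cct6a was 11.50 and 11.54 in P13 mutants against 12.74 and 13.10 in controls and fell by 1.40 ± 0.30 (adjusted p = 0.00382), with -1.29 for its second probe, and without control 4 the difference was -1.22 (0.059). In adults all 8 subunits were lower in the mean of mutants than in the 1 control, and 0 passed. Cct2, Cct5 and Cct7 were detected on 2 or 3 arrays each, so their small differences are those of signals near background. These 3 also enter the medians and ranges above.

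Of 3 Hsp90 genes, 0 passed the test at any of the 5 ages, where 1.89%, 22.4%, 20.1%, 9.94% and 11.6% of all genes did. Hsp90ab1, the constant cytosolic form, lay between 12.87 and 13.89 on all 24 arrays with differences of 0.33, -0.38, 0.32, -0.33 and -0.16, and 95% intervals that ran from -0.89 at the lowest to 0.84 at the highest. Its other 2 probes gave -1.26 and -1.53 at P13 and did not pass. Hsp90b1, the form of the endoplasmic reticulum, gave 0.03, -0.64, 0.31, -0.07 and -0.68. Hsp90aa1, the inducible form, was 7.48 and 6.83 in P6 mutants against 7.83 and 8.07 in controls, and at P20 7.21 and 7.51 in mutant 1 and control 3 of chip F and 4.53, 4.95 and 4.62 in mutant 2 and controls 4 and 5 of chip G. Arrays of chip F thus lay above those of chip G in both genotypes.

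At P20 the chips differed for many members, so the differences within each chip were set side by side. Of 56 members, 41 (73.2%) had the same sign on chip F and on chip G, where 61.3% of all genes tested did. For the 5 members that passed the test at P20, whose sign on each chip is in part fixed by that choice, Hspa2 gave -2.20 and -2.12, Dnajb5 -0.79 and -1.17, Dnajc12 -0.73 and -1.67, Hspa1a -0.40 and -1.31 and Dnajb13 0.76 and 1.04. Fibroblast markers were detected for 14 of 16 genes in control 3 and for 3 to 5 on the other 4 P20 arrays, so the chip F difference compares arrays of unequal dermal signal, whose part in it was not tested.

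**Figure D5:**
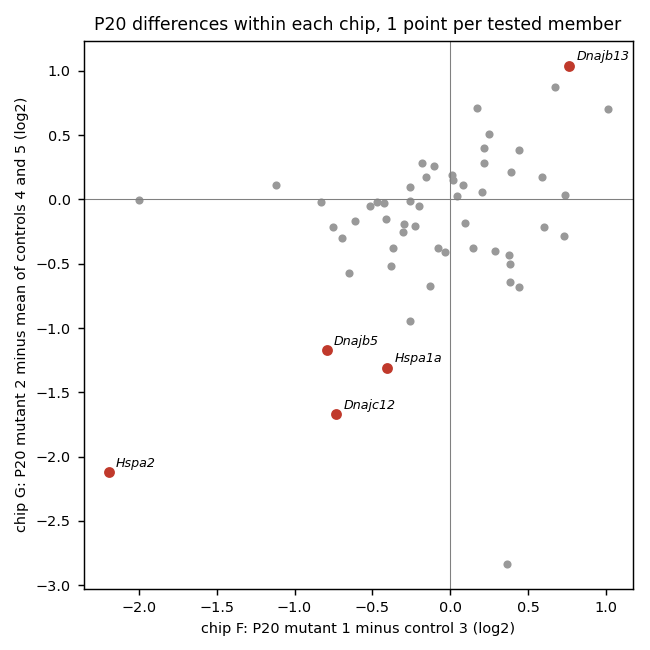
Difference in log2 level at P20 within chip F (x axis, 1 mutant and 1 control) and within chip G (y axis, 1 mutant and 2 controls), 1 point per tested member, with the 5 members that passed the test in red. Hspa2 lies near -2 on both axes, and the point at the bottom is Hspa1b, at 0.36 on chip F and -2.83 on chip G.

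Across control ages, 21 of 56 members differed between P3, P6, P13 and P20 (37.5%), where 44.4% of all genes did (moderated F test). Among members detected in all controls of the 4 ages, or in all but 1, control means ranged over 2.37 for Hspa1a, 2.18 for Hspa1b, 2.02 for Hspd1 and 1.92 for Dnajb3. No range is given for Hspa12b, undetected in all controls of P3 and P20, or for Hsp90aa1, undetected in all 4 controls of P3. Hspd1 was between 9.61 and 10.03 in P3 controls, 11.30 and 11.65 at P6, 10.70 and 10.77 at P13, and 10.49, 8.97 and 8.89 at P20. Dnajb3 was 7.23 to 7.62 at P3 and 5.51 to 5.54 at P6 and P13, and 6.32 to 7.42 at P20. Ages lay on different chips, so age and chip cannot be told apart in these values. In the tests of the mutant effect between successive ages, 1 member rose and 2 fell from P3 to P6 (background 4.51% and 6.11%), 2 rose and 2 fell from P6 to P13 (5.42% and 4.41%), and 2 rose and 1 fell from P13 to P20 (3.62% and 3.74%). All of these are described above with their genes.

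Of 38 tested regulators and cofactors of the heat shock proteins, 0 changed at P3, 1 rose and 3 fell at P6, 3 rose and 3 fell at P13, 3 rose and 4 fell at P20, and 1 rose and 2 fell in adults. These are 0%, 10.5%, 15.8%, 18.4% and 7.89% of the list, beside 1.89%, 22.4%, 20.1%, 9.94% and 11.6% of all genes. Bag4, a nucleotide exchange factor of Hsp70, was 10.06 and 10.08 in P6 mutants against 8.65 and 8.94 in controls, and 10.33 and 9.88 in P13 mutants against 8.47 and 8.43. It rose by 1.28 ± 0.27 at P6 (adjusted p = 0.00283) and by 1.65 ± 0.27 at P13 (4.53e-04), with no overlap. Its adult rise of 1.29 ± 0.32 (0.0124) was 1.05 and 1.04 without p53f/+ mutant 1 or 3 (0.0729 and 0.0738). Bag3, a stress-induced partner of Hspb8 and Hsp70, was 13.01 and 12.39 in P13 mutants against 11.55 and 11.43 in controls and rose by 1.21 ± 0.24 (adjusted p = 0.00187). Its P20 rise of 0.76 ± 0.22 (0.0347) was 0.58 without mutant 2 and 0.73 without control 4 (0.153 and 0.0994). Ppid, a cyclophilin of Hsp90 complexes, was 9.66, 10.65 and 9.92 in adult mutants against 11.41 in the control and fell by 1.34 ± 0.30 (adjusted p = 0.00748). It also fell by 1.09 ± 0.26 at P6, a call lost without mutant 2 or control 4 (-1.031 and -1.002, 0.0555 and 0.065), and fell by 1.12 ± 0.26 at P13, lost without control 4 (-1.03, 0.0701). Serpinh1, the collagen chaperone of the endoplasmic reticulum, was 8.32 and 7.88 in P6 mutants against 13.10 and 12.94 in controls. It fell by 4.92 ± 0.63 (adjusted p = 3.64e-05), on arrays whose fibroblast markers had means of 5.54 and 5.44 in mutants and 10.63 and 11.04 in controls. The adult level was 12.57 in the mutant without the p53 allele, 8.79 and 6.56 in the p53f/+ mutants and 13.70 in the control. On these adult arrays, in the same order, fibroblast means were 10.31, 5.53, 5.29 and 11.18. The part of fibroblasts in Serpinh1 was not tested at either age. In adults it fell by 4.396 ± 0.73 (6.64e-04; 0.168 with only the adult arrays in the fit), and its P20 fall of 1.94 ± 0.58 (0.0422) was lost without mutant 1, control 4 or control 5 (-1.79 to -1.32, 0.122 to 0.266). Fkbp5, a glucocorticoid-induced partner of Hsp90, had the largest rises of the list at P13 and P20, by 1.81 ± 0.52 at P13 (adjusted p = 0.0207), lost without mutant 1 (1.20, 0.257), control 3 or control 4 (1.75 and 1.86, 0.103 and 0.0962), and by 1.78 ± 0.47 at P20 (0.0241), lost without mutant 2 (1.34, 0.14). Cryab, a small heat shock protein that the name rule does not take in, had the largest falls of the list at these 2 ages, with differences of -2.20 ± 0.62 at P13 (0.0194), lost without mutant 2, control 3 or control 4 (-2.39 to -1.55, 0.0611 to 0.187), and -2.56 ± 0.57 at P20 (0.00901), lost without mutant 2 (-1.72, 0.0957). Hsf1 was 10.79 and 10.83 in P6 mutants against 11.50 and 11.47 in controls, and its differences of -0.67, -0.69 and -0.67 at P6, P13 and P20 did not pass, while their mean fell by 0.68 ± 0.20 (adjusted p = 0.0176). Its P20 difference was -0.17 within chip F and -0.73 within chip G. The P20 arrays overlapped, with mutant 2 of chip G at 11.05 and control 3 of chip F at 10.46. The part of the unequal fibroblast signal in its P6 difference was not tested.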

How the data were processed

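RNA from 24 mouse epidermis samples had been hybridized to Illumina BeadChips. The deposited intensity values are scanner averages per probe, per the file headers, and 4 arrays on chips G and H held values already background-subtracted. The authors' deposited detection p-values filled 10 columns, and 13 other deposited columns held 1 minus p as a fraction. 1 per-sample column was not used, because in the adult p53f/+ sample 3 it holds bead numbers. The authors' deposited log2 values were made with limma, per the submitters' processing notes, with no further settings given in the sources used here, and served as an alternative.

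Intensities were corrected by normexp with an offset of 16, quantile normalized and put on a log2 scale with limma 3.58.1 in R 4.3.3. For that sample the level of background came from its neighbours on chip F. Each gene was read by its brightest probe detected in at least 2 arrays. A linear model over all groups (12 residual degrees of freedom) gave each difference, with limma's moderated test and Benjamini-Hochberg adjustment over 14950 genes, and adjusted p under 0.05 was called. Probe-level p-values were adjusted over 20542 probes. Undetected groups were given bounds at the detection floor. The number of arrays limits the precision. The fit was tested on simulated data.

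Members and gene lists were chosen with earlier results of these data known. Named genes were Mad2l1, the core heat shock genes whatever their values, the chaperonin subunits as a group, at each age up to 8 other called members in each direction without overlap between arrays, up to 6 called members in the other tests, and up to 6 called cofactors. Dnajb9 was named after its values were seen. Alternatives changed the background, normalization, filter, probe, chip block and samples.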

Additional observations from a re-analysis of the deposited data

Results flagged for a closer look

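Among the 4 P3 controls, 1 array lay far from the other 3 for Hspa8 (a gap of 0.912 of the range) and for Dnajc7 (0.963), above the critical value of 0.829. In both it was control 7, the highest and the P3 array on a chip of its own. Of 31 members tested in this way, chance marks about 1 in 20.

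The mutant effect differed between ages, by a test of the difference itself, for 7 members. From P3 to P6 the effect changed by 1.588 for Dnajb13, -3.424 for Hspa12b and -1.357 for Hspa8. From P6 to P13 it changed by -1.198 for Dnajc15, 2.912 for Hspa12b, -1.918 for Hspa2 and 1.378 for Hspa8. From P13 to P20 it changed by 1.337 for Dnajc15, 1.409 for Dnajc19 and -2.344 for Hspa1a. Successive differences share the arrays of the age between them, and ages lay on different chips.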

How the results depend on the processing

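Of 1017 values of 81 gene results under alternatives, 799 kept direction and call, 204 kept direction and lost the call, and 14 reversed. No paired analysis was possible because mutants and controls of an age share no replicate numbers. The number of members called moved as follows, and the cause was not tested unless fewer arrays or genes entered. At P3 it was 2 as reported and 1 with no background correction, an offset of 50, the authors' values, no filter, detection in 12 arrays, the mean of probes, only the compared groups, or the array of conflicting labels as a mutant or a control, and 0 to 2 leaving out each array. At P6 it was 10, and 3 on chips with both sides, 18 with only the compared groups, 22 with array weights, 18 without chips G and H, and 3 to 5 leaving out each array. At P13 it was 8, and 15 with array weights, 14 without G and H, and 4 to 8 leaving out each array. At P20 it was 5, and 2 with detection in 12 arrays, 0 with the compared groups, 2 on chip F and 8 on chip G (1 mutant each), 0 with array weights, 3 without G and H, and 2 to 11 leaving out each array. In adults it was 4, and 2 with the authors' values (4 members tested, against 56), 7 with a fixed or random chip block, 0 with the compared groups, 7 with array weights, 9 without G and H, and 2 to 6 leaving out each array. For the change from P3 to P6 it was 3, and 6 with a random block and 8 without G and H. From P6 to P13 it was 4, and 7 with the authors' values, 9 with a random block and 15 without G and H. From P13 to P20 it was 3, and 8 with a random block and 7 without G and H. For the p53 allele it was 4, and 0 with the authors' values (4 members tested), 13 with a random block and 20 without G and H. For control ages it was 21, and 43 without G and H.

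Reversed values came from other probes of the gene, chosen after seeing the data, except 1. Dnajb6 at P13 was -0.046 with the mean of probes and -0.449 and -1.024 with other probes. The Dnajc6 probe detected on 7 arrays gave 0.551 at P3, 2.205 at P6, 0.118 at P13, 2.231 in adults and 0.718 in the mean of P6 to P20. Another Hspa8 probe gave 0.781 at P6, 0.630 for the change from P3 to P6 and -3.905 from P6 to P13. Another Hspa1a probe gave -0.091 at P13 and -0.071 in the mean, and another Dnajc19 probe -0.706 from P13 to P20. Low signal over background limits Cct2, Cct5, Cct7, Dnajb13, Dnajb5 and Dnajc12.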
